A study of Mus musculus with 6 samples.

Results

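Enteroendocrine cells of the jejunal epithelium were taken as the cells that held the RNA of the granule proteins chromogranin A (*Chga*) and chromogranin B (*Chgb*). A cell barcode was a member if its summed *Chga* and *Chgb* UMIs (unique molecular identifiers, each counting 1 captured transcript) numbered at least 5 and made up at least 0.2% of its UMIs. It also had to hold at least 750 genes and at most 20% mitochondrial UMIs. The rule found 224 members among 26696 barcodes that passed both filters, which is 0.839%, out of 59457 barcodes called as cells. The members were thus chosen by measured *Chga* and *Chgb*, whose levels are given below as a description.

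The cells came from male wild-type C57BL/6J mice of about 30 weeks of age, kept on a low-fat diet (LFD) or a high-fat diet (HFD) for 16 weeks before surgery. The mice then returned to the same diet and were sampled 5 weeks after surgery, following an overnight fast. LFD sham and HFD sham mice had a sham operation, and HFD VSG mice had a vertical sleeve gastrectomy (VSG), which removes most of the stomach along its greater curvature. Each group gave a crypt-labelled and a villus-labelled 10x Genomics 3′ library, with 3 mice pooled for each sham group and 2 mice pooled for HFD VSG. Crypts and villi were separated from the same intestinal segments, so both libraries of a group share mice and are not independent. With 1 library per group and fraction, no difference between groups could be tested, and the intervals below (95%) cover counting error only, not the spread between mice.

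Enteroendocrine cells are scattered secretory cells that sense nutrients in the gut lumen and release peptide hormones and serotonin from dense-core granules at their base. Chromogranins help to form these granules. Individual cells are known by what they make: K cells by the incretin GIP, L cells by GLP-1 (cut from the product of *Gcg*) and peptide YY, I cells by cholecystokinin, N cells by neurotensin, D cells by somatostatin, X cells by ghrelin, and enterochromaffin cells by serotonin, often with substance P. The transcription factor NEUROD1 is needed for enteroendocrine differentiation, and many mature cells make several hormones.

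The promoters of both genes that chose the cells are shown first, followed by those of *Gip* and *Tac1*, the genes of the incretin GIP and of substance P. The cells led by *Gip* and those led by *Tac1* with *Tph1* made up the largest hormone classes below. The windows are the 250 bases before each RefSeq transcript start (GRCm38.p6), printed 5′ to 3′ on the gene's strand. Capitals mark TGACGT and AGATAA, each searched on both strands. The former is the core of the cyclic AMP response element, and the latter is bound by zinc-finger factors of the GATA family.
Chga chr12:102554691-102554940 (+): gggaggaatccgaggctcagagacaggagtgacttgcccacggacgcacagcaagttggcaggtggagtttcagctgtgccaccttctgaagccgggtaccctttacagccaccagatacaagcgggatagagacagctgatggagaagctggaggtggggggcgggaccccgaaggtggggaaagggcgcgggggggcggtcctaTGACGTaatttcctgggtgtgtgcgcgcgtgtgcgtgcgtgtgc
Chgb chr2:132781392-132781641 (+): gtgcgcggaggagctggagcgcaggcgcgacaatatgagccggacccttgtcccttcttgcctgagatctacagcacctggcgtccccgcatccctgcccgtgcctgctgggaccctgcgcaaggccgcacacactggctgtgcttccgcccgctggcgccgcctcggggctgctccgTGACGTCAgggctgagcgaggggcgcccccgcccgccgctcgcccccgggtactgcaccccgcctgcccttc
Gip chr11:96024295-96024544 (+): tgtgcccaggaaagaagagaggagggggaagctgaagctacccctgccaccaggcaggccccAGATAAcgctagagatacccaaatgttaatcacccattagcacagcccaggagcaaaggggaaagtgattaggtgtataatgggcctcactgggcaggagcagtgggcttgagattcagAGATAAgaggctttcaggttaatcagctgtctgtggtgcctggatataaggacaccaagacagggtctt
Tac1 chr6:7554811-7555060 (+): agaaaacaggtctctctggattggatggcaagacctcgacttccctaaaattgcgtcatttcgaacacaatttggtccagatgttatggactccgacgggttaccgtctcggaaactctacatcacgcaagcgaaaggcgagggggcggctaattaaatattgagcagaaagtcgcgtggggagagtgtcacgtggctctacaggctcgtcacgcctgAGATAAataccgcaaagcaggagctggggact

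The *Chga* window held TGACGT 44 bases before the start. The *Chgb* window held it once on each strand, the copies overlapping, 72 and 70 bases before the start, and neither chromogranin window held AGATAA. The *Gip* window held AGATAA 188 and 69 bases before the start, the *Tac1* window held it 32 bases before the start, and neither held TGACGT. The E-box CANNTG, the motif class bound by NEUROD1, was found 3 times in the *Chga*, once in the *Chgb*, 2 times in the *Gip* and 2 times in the *Tac1* window. Of 32851 windows of the same length, 6.47% held TGACGT, 9.99% held AGATAA and 66.2% held CANNTG, so a match to CANNTG was common. These matches are letters in a sequence, and no measurement of binding was made here.

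Members were found in every library. The LFD sham crypt-labelled library held 37 of 4610 passing barcodes (0.803%, exact binomial interval 0.566 to 1.10%) and the villus-labelled one 44 of 4556 (0.966%, 0.703 to 1.29%). The HFD sham libraries held 24 of 3286 (0.730%, 0.469 to 1.08%) and 48 of 4315 (1.11%, 0.821 to 1.47%). The HFD VSG libraries held 40 of 5232 (0.765%, 0.547 to 1.04%) and 31 of 4697 (0.660%, 0.449 to 0.936%). The highest share was in the HFD sham villus-labelled library and the lowest in the HFD VSG villus-labelled one.

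On the log2 scale the share in HFD sham relative to LFD sham was -0.14 (-0.94 to 0.64) in crypt-labelled and 0.20 (-0.42 to 0.83) in villus-labelled libraries, and both intervals included no difference. HFD VSG relative to HFD sham was 0.07 (-0.70 to 0.86) in crypt-labelled and -0.75 (-1.45 to -0.07) in villus-labelled libraries. The villus-labelled interval lay just below 0. With both fractions summed the ratio was -0.41 (-0.90 to 0.088), from 71 of 9929 and 72 of 7601 barcodes, and its interval included 0. At a limit of 10% mitochondrial UMIs the ratio in villus-labelled libraries was -1.50 in place of -0.75. That limit also removed passing barcodes, whose median mitochondrial share was 10.9% in HFD sham villi and 7.11% in HFD VSG villi. In members it was 3.82 and 2.11%, so the change in the ratio is not a count of fewer members. The passing barcodes, of which these shares are taken, included cells with T cell genes and no chromogranin UMI. These numbered 664 in LFD sham, 11 in HFD sham and 642 in HFD VSG villi. Ratios without them were not computed, so a lower share need not mean fewer members among epithelial cells. Fewer cells of a type and a larger loss of such cells during dissociation cannot be told apart here.

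**Figure D1:**
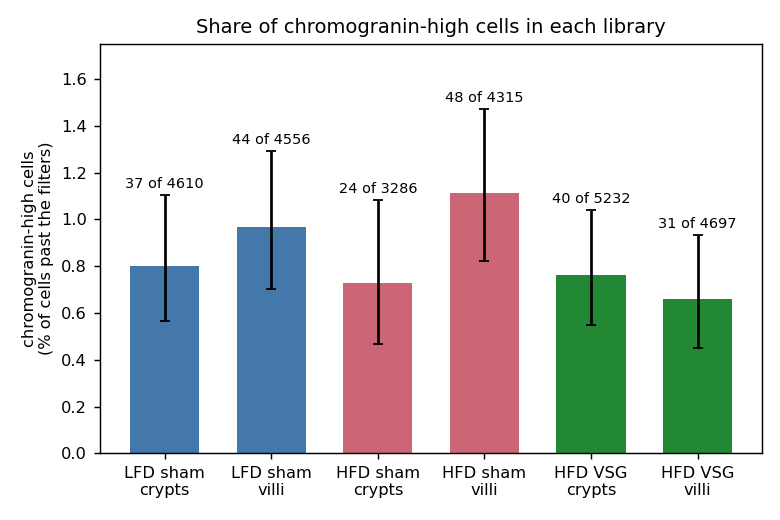
Share of passing barcodes that met the chromogranin rule, in percent, for each of the 6 libraries. Bars are libraries, and error bars are exact binomial 95% intervals. Shares run from 0.660% to 1.11%, and the 6 intervals overlap.

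Nearly all members also held endocrine genes that the rule did not use. At least 1 UMI of *Neurod1*, *Tac1*, *Tph1*, *Cck*, *Gip* or *Sct* was present in 223 of 224 members (99.6%, 97.5 to 100%). By library this was 37 of 37, 44 of 44, 24 of 24, 47 of 48, 40 of 40 and 31 of 31, in the order LFD sham, HFD sham, HFD VSG with the crypt-labelled library first. *Neurod1* was detected in 212 members and *Sct*, the gene of secretin, in 202. *Cck* was detected in 127, *Tac1* in 80, *Gip* in 78 and *Tph1*, the rate-limiting enzyme of serotonin synthesis in the gut, in 72.

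In the 26472 other passing cells, 27.4% held a UMI of any of these 6 genes, mostly *Sct* (21.1%) and *Gip* (6.10%), and 0.446% held a UMI of *Neurod1*. Cells with T cell genes and no chromogranin UMI, which should make none of them, held one in 15.3% of 1636 cells, with *Gip* in 6.36% and *Sct* in 7.33%. The *Gip* share in other cells was thus at the level of the T cell background, whereas the *Sct* share was above it, in cells that were deeper. Median depth was 6174, 8813, 4606, 7242, 8441 and 16925 UMIs in members, 9202, 11011.5, 11262, 13032, 16733.5 and 30895 in all passing barcodes, and 3454, 3138.5, 3241, 4343, 4032 and 5504 in the cells with T cell genes. When members were thinned to 2000 UMIs each, 213 of the 215 that were deep enough still held at least 1 of the 6 genes.

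Members were shallower than the passing barcodes around them in all 6 libraries and held a lower share of mitochondrial UMIs. The median mitochondrial share was 2.11 to 5.51% in members against 7.11 to 12.8% in all passing barcodes. Of the members, 37 lay under 0.4% chromogranin and 8 under 10 chromogranin UMIs. The lowest member held 0.203% and the highest 14.9%. Just outside the rule, 47 passing cells held at least 5 chromogranin UMIs at up to 0.197% of their UMIs, and 20 of these held a *Neurod1* UMI.

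The fraction labels did not match the markers of the surrounding cells. Among other passing cells, enterocyte markers took a median of 7.46, 8.89 and 10.0% of UMIs in the crypt-labelled libraries of LFD sham, HFD sham and HFD VSG, against 2.34, 5.81 and 1.18% in the villus-labelled ones. Paneth cell markers, which belong to the crypt base, took 1.07, 1.03 and 0.956% of summed UMIs in crypt-labelled and 7.02, 3.73 and 1.35% in villus-labelled libraries. The fractions are therefore called by their labels only, and main differences between groups are also given with both fractions summed. Called barcodes shared between at least 2 libraries numbered 420, of which 4 were members.

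Genes of endocrine identity separated the members from the other cells by large factors. Among 3887 genes with at least 100 UMIs in members, 678 (17.4%) were higher in members than in other cells by more than 1 in log2 CPM (UMIs of a gene per 1000000 UMIs of the summed cells) in all 6 libraries, and 157 (4.04%) were lower. The median over all of these genes was 0.55. Since the rule set members against the rest, these values describe the cells and are no test.

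Of 24 transcription factors of the endocrine lineage with enough UMIs, 23 were higher in all 6 libraries and the list's median log2 ratio was 8.48. All 15 compared genes of granule proteins and prohormone processing were higher, with a median of 10.52, as were 9 of 9 ion channels (9.95) and 11 of 12 genes of vesicle exocytosis (8.02). These lists held 34 transcription factors, 24 granule genes, 29 ion channels and 22 exocytosis genes. Only genes with at least 100 UMIs in members were compared, so listed genes scarce in members could not enter the counts. Among 15 genes of serotonin and amine handling 8 were higher and 1 was lower, and among 9 nutrient sensors and hormone receptors 5 were higher and 2 lower. On the other side, 10 of 15 genes of fat absorption were lower (median -2.02), 9 of 10 enterocyte markers were lower (-2.23) and 5 of 5 Paneth markers were lower (-3.37). Of 59 nuclear genes of oxidative phosphorylation none was higher, 4 were lower and the median was -0.91.

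Outside the gene lists, the 10 genes with the highest ratios were led by *Adcy1*, a calcium-stimulated adenylyl cyclase, which was found in 80 of 224 members (35.7%) and had under 3 UMIs in the other cells of all 6 libraries. *Adgrg4*, an adhesion G protein-coupled receptor, was found in 155 members (69.2%), with a mean log2 ratio of 11.67. *Map1b*, a microtubule-associated protein best known from neurons, was found in 195 members (87.1%) at a ratio of 10.92. The others were *Amigo2* and *Ncam2*, both adhesion molecules, *Slc38a11*, a putative amino acid transporter, *Fxyd6*, a regulator of the sodium pump, *Sphkap*, an anchoring protein of protein kinase A, *Gng4*, a G protein subunit, and *Pnmal1*, at mean log2 ratios of 10.91 to 11.29. Where the other cells held no UMI of a gene in a library, its ratio there was computed against a floor of 3 UMIs and is a lower bound.

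Of 10 hormone genes, secretin was the most widespread. *Sct* reached 5 UMIs in 163 of 224 members (72.8%, 66.4 to 78.5%), *Cck* in 91 (40.6%), *Gip* in 68 (30.4%), *Tph1* in 57 (25.4%) and *Tac1* in 48 (21.4%). *Nts* reached it in 34, *Pyy* in 32, *Gcg* in 30, *Ghrl* in 23 and *Sst* in 10. Among other passing cells *Gip* reached 5 UMIs in 13 (0.0491%), *Tph1* in 1, *Tac1* in 1 and *Sct* in 356 (1.34%). At least 5 UMIs of 2 or more of the 10 genes were held by 176 members.

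The hormone genes were combined in a recurring order. *Tac1* and *Tph1* were held together by 40 members, found in all 6 libraries. *Gip* and *Cck* were held together by 39 members, whereas none of the 68 *Gip*-positive members reached 5 UMIs of *Tac1* or *Tph1*. The same was true of the 30 *Gcg*, 32 *Pyy*, 34 *Nts* and 10 *Sst* cells, whereas 7 *Cck* cells and 1 *Ghrl* cell reached 5 UMIs of *Tac1*, and 3 *Cck* cells of *Tph1*. *Gcg* came with *Cck* in 28 of 30 cells, and 14 cells held *Gcg* with *Pyy*. *Sst* came with *Ghrl* in 8 of 10 cells and with *Gip* in 8 of 10. *Sct* accompanied *Gip* in 63 of 68 cells and *Nts* in 32 of 34, but *Tac1* in 30 of 48.

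**Figure D2:**
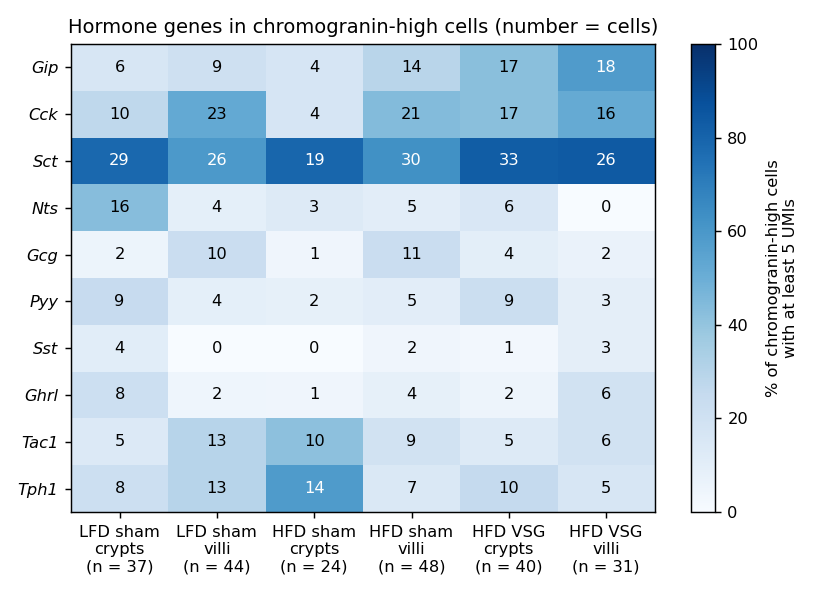
Heat map of the members with at least 5 UMIs of each of 10 hormone genes, coloured by percent of the members of each of the 6 libraries and printed as numbers of cells. *Gip* runs from 16.2% to 58.1% and is highest in the HFD VSG libraries, and *Nts* runs from 0 to 43.2% and is highest in LFD sham crypts.

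When each member was assigned to the hormone gene with most UMIs (at least 5, secretin left aside, *Tac1* and *Tph1* summed), *Tac1* and *Tph1* led 64 cells and *Gip* 57. *Cck* led 26, *Nts* 23, *Gcg* 14, *Sst* 9, *Pyy* 6 and *Ghrl* 4, and 21 members had no leading hormone. These classes are called by their leading gene. *Tac1* and *Tph1* cells numbered 8, 15, 14, 10, 10 and 7 by library and *Gip* cells 3, 8, 4, 11, 16 and 15, in the library order given above.

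The split between chromogranins differed between the hormone classes. Both genes chose the cells, and a cell low in 1 of them could enter only through the other, so the split is a description. *Chga* made up 20.6% of all chromogranin UMIs in *Tac1* and *Tph1* cells and 1.42% in *Gip* cells. By library the share was 10.6 to 33.8% in the former and 1.28 to 3.45% in the latter, without overlap. The median *Tac1* and *Tph1* cell held 92 *Chga* and 446.5 *Chgb* UMIs at a median depth of 7845.5 UMIs, against 2 and 127 in the median *Gip* cell at a depth of 9386.

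By *Chga* alone, 62 of 64 *Tac1* and *Tph1* cells would have met the rule (96.9%, 89.2 to 99.6%) and 0 of 57 *Gip* cells (0 to 6.27%). A count of 0 cells is to be read below with the share that 3 cells would make up. This is 5.26% of the 57 *Gip* cells and 4.69% of the 64 *Tac1* and *Tph1* cells, also where it is not repeated. For RNA a count of 0 bears on cells with a UMI and not on cells that express a gene. The highest *Chga* count in any of the 68 *Gip*-positive members was 11 UMIs, and 16 of these held none. Of all members, 21 held no *Chga* UMI and 4 no *Chgb* UMI. A rule on *Chga* alone kept 93 of 224 members. *Chga* made up 28.4% of the chromogranin UMIs of *Nts* cells, above both large classes, and 8.995% in *Cck* cells and 5.35% in *Gcg* cells. The 4 *Ghrl* cells had 73.0%, from 126 chromogranin UMIs in all.

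**Figure D3:**
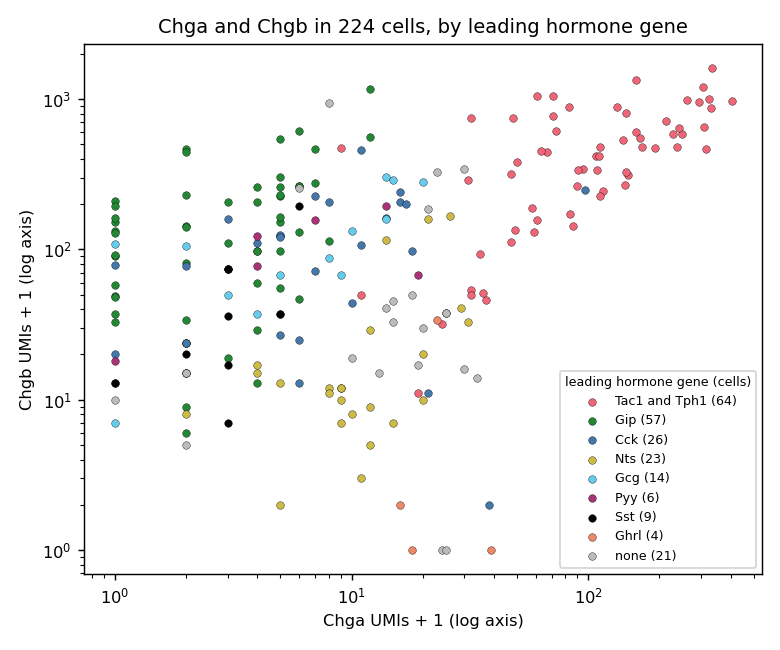
*Chga* against *Chgb* in each member, by leading hormone class. Each point is 1 cell, and both axes are log scales of UMIs plus 1. *Gip* cells hold at most 11 *Chga* UMIs, and the *Tac1* and *Tph1* cells hold a median of 92.

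*Tac1* and *Tph1* cells and *Gip* cells also held different regulators. Of 7949 genes compared between these classes, 435 (5.47%) were higher in the *Tac1* and *Tph1* cells in all 6 libraries and 163 (2.05%) were higher in the *Gip* cells in all 6. The smallest class in a library was 3 cells, and the classes were set by hormone UMIs, so hormone genes are no finding here and other genes are given as shares of cells with a UMI, without a test. Of 27 transcription factors, 4 were higher in *Tac1* and *Tph1* cells and 6 in *Gip* cells in all 6 libraries, shares of 14.8% and 22.2%.

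*Lmx1a*, a LIM homeodomain factor of the enterochromaffin lineage, was found in 48 of 64 *Tac1* and *Tph1* cells (75.0%) and in 0 of 57 *Gip* cells (3 would be 5.26%). *Isl1*, another LIM homeodomain factor, showed the reverse, with 2 of 64 (3.12%) and 56 of 57 (98.2%). *Pax6* was found in 27 and 56 cells and *Rfx6* in 31 and 56, and *Etv1* in 5 and 26. The ETS factor *Fev* was found in 42 and 28 cells, and *Sox4* in 47 and 38. *Pdx1*, a factor of pancreas and duodenum, was found in 0 of 64 and 19 of 57 cells and was higher in the *Gip* cells in 4 libraries.

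*Lmx1a* was also not detected in the 26 *Cck*, 23 *Nts* and 14 *Gcg* cells, where 3 cells with a UMI would be 11.5, 13.0 and 21.4%. *Isl1* was found in 96.2% of *Cck* cells, 65.2% of *Nts* cells and 78.6% of *Gcg* cells. *Neurod1* itself was near the same in both large classes, at 63 of 64 and 56 of 57 cells.

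**Figure D4:**
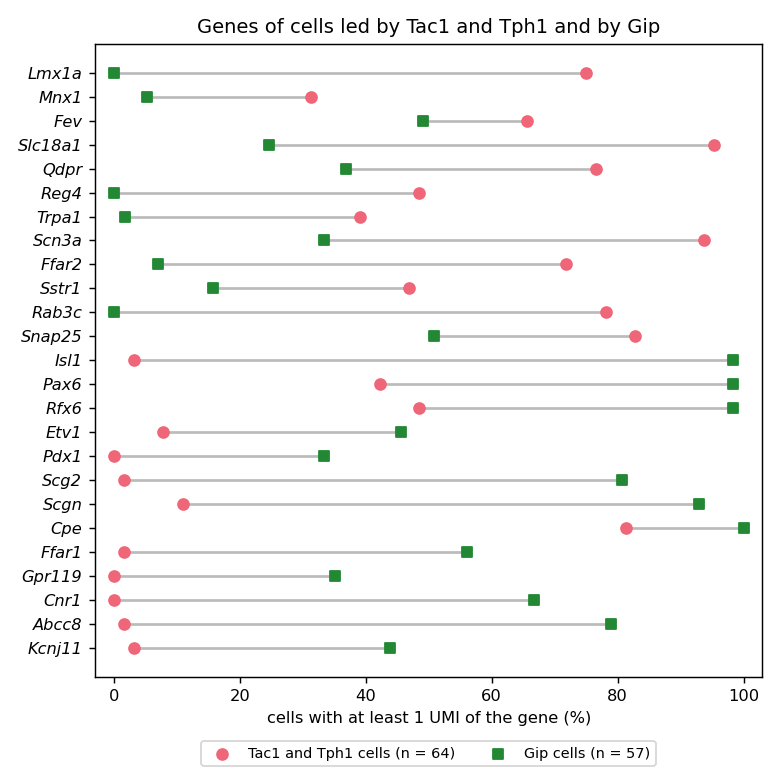
Share of cells with a UMI, in percent, for 25 genes in the *Tac1* and *Tph1* cells (circles) and the *Gip* cells (squares). *Lmx1a* is at 75.0% in *Tac1* and *Tph1* cells and at 0 in *Gip* cells, and *Isl1* is at 3.12% and 98.2%.

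Of 16 genes of serotonin and amine handling, 5 (31.2%, against 5.47% of all genes) were higher in *Tac1* and *Tph1* cells in all 6 libraries, none was higher in *Gip* cells in all 6, and 11 were in neither. *Slc18a1*, the vesicular monoamine transporter that loads serotonin into granules, was found in 61 of 64 cells and in 14 of 57 *Gip* cells. *Gch1* and *Qdpr*, which make and recycle the tetrahydrobiopterin used by tryptophan hydroxylase, were found in 50 and 49 cells against 41 and 21. *Ddc*, the decarboxylase that follows *Tph1*, was found in 59 and 55 cells and was higher in 3 libraries on either side.

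Of 15 nutrient sensors and hormone receptors, 2 were higher in *Tac1* and *Tph1* cells and 1 in *Gip* cells in all 6 libraries, and 12 in neither. Of 18 ion channels these numbers were 1, 3 and 14. The shares were 13.3 and 6.67% for the sensors and receptors and 5.56 and 16.7% for the channels, beside 5.47 and 2.05% of all genes, so the channels higher in *Tac1* and *Tph1* cells were near the share of all genes. *Trpa1*, an irritant-sensing channel of enterochromaffin cells, was found in 25 of 64 and 1 of 57 cells, and the sodium channel *Scn3a* in 60 and 19. *Ffar2*, a receptor for short-chain fatty acids, was found in 46 and 4 cells. *Ffar1* and *Ffar4*, receptors for longer fatty acids, and *Gpr119*, a receptor for lipid amides, were each higher in the *Gip* cells in 5 libraries. *Ffar1* was found in 1 and 32 cells, *Ffar4* in 2 and 21, and *Gpr119* in 0 and 20 (3 of 64 would be 4.69%). *Abcc8* and *Kcnj11*, the subunits of the ATP-sensitive potassium channel, were found in 1 and 2 of 64 cells against 45 and 25 of 57. Over all 224 members *Abcc8* was found in 96, so it was not limited to *Gip* cells. *Cnr1*, the cannabinoid receptor CB1, was found in 0 and 38 cells and in 3.85% of *Cck* cells.

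Of 20 genes of granule proteins and prohormone processing, 2 were higher in *Tac1* and *Tph1* cells and 3 in *Gip* cells in all 6 libraries (shares of 10.0% and 15%), and 15 in neither. *Scg2* (secretogranin II) was found in 1 of 64 *Tac1* and *Tph1* cells and 46 of 57 *Gip* cells, and *Scgn*, the calcium sensor secretagogin, in 7 and 53. *Cpe*, the carboxypeptidase that trims prohormones, was found in 52 and 57 cells at 511 and 2217 CPM, here the mean of each cell's own CPM. Over all 224 members *Cpe* was found in 191, so other classes held it too. *Pcsk1*, the prohormone convertase that also cuts pro-GIP, was found in 64 and 53 cells, at means over single cells of 1480 CPM in the *Tac1* and *Tph1* cells and 525 CPM in the *Gip* cells. *Rab3c*, a vesicle GTPase, was found in 50 and 0 cells. *Reg4* was found in 31 and 0 cells.

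With both fractions summed, *Gip* showed the largest difference between HFD VSG and HFD sham among the 10 hormone shares. *Gip*-positive members (at least 5 UMIs) numbered 6 of 37, 9 of 44, 4 of 24, 14 of 48, 17 of 40 and 18 of 31 in the 6 libraries. In percent of members this was 16.2 and 20.5% in LFD sham, 16.7 and 29.2% in HFD sham and 42.5 and 58.1% in HFD VSG. Both HFD VSG libraries lay above all 4 sham libraries.

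HFD VSG exceeded HFD sham by 25.8 percentage points (Newcombe interval 2.09 to 44.1) in crypt-labelled and by 28.9 (6.64 to 47.9) in villus-labelled libraries. With both fractions summed, 35 of 71 HFD VSG members and 18 of 72 HFD sham members were *Gip*-positive, a difference of 24.3 points (8.47 to 38.5). HFD sham exceeded LFD sham by 0.45 points (-17.5 to 21.5) and 8.71 points (-9.08 to 25.5), and both intervals included 0. With every cell thinned to 2000 UMIs, HFD VSG exceeded HFD sham by 25.1 and 24.6 points. Without members holding over 2% enterocyte or goblet marker UMIs, the crypt-labelled difference was 46.2 points, without an interval. The enterocyte limit alone left out 10 of 24 HFD sham and 14 of 40 HFD VSG members there, so few cells remained.

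*Gip*-positive members made up 0.130 and 0.198% of passing cells in LFD sham, 0.122 and 0.324% in HFD sham and 0.325 and 0.383% in HFD VSG. The villus-labelled libraries of HFD sham and HFD VSG were close in this share, and the HFD VSG library held fewer members in all. Leaving the chromogranins aside, cells with at least 5 *Gip* UMIs making up at least 1% of their UMIs numbered 6, 7, 4, 10, 18 and 15, of which 3, 7, 4, 8, 16 and 15 were members.

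The amount of *Gip* in the cells that held it varied widely. The median *Gip*-positive member spent 1.78, 6.39, 7.68, 2.26, 12.9 and 11.7% of its UMIs on *Gip*, with single cells from 0.034 to 27.5%. Over all members, *Gip* stood at 3794, 12223, 5575, 23954, 59976 and 71607 CPM. The log2 ratio of HFD VSG to HFD sham was 3.43 in crypt-labelled and 1.58 in villus-labelled libraries, and 3.79 and 1.81 without the cell with most *Gip* UMIs. HFD sham to LFD sham was 0.56 and 0.97. Within the cells led by *Gip*, numbering 3, 8, 4, 11, 16 and 15, *Gip* stood at 70052, 77280, 80553, 101006, 125531 and 121107 CPM. The HFD VSG libraries were the highest here too, but the range between libraries was far narrower than over all members. Cells other than members held a *Gip* UMI in 5.12, 3.66, 4.02, 5.27, 7.45 and 10.1%, and droplets under 100 UMIs held *Gip* at 55.6, 52.2, 80.7, 357, 200 and 396 CPM, so free *Gip* RNA was also higher in HFD VSG and in HFD sham villi than in the other 3 libraries. Its part in the level of the members was not tested.

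**Figure D5:**
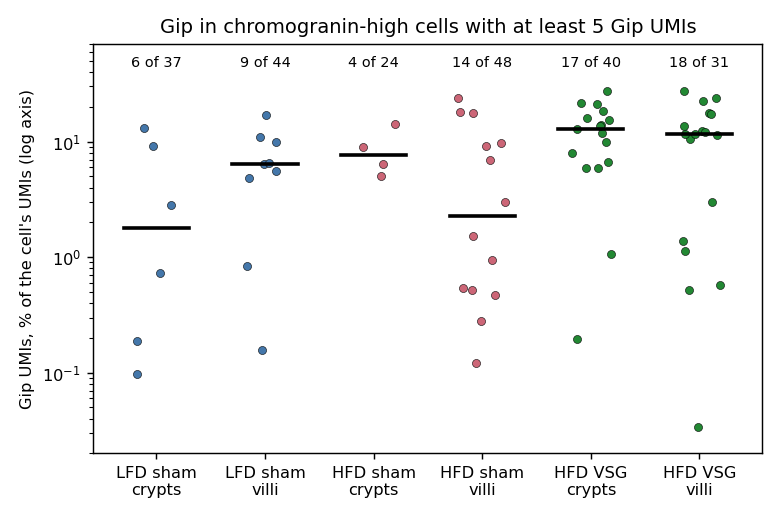
Percent of a cell's UMIs that were *Gip* (log axis) in each member with at least 5 *Gip* UMIs, by library. Points are cells, lines are medians, and the numbers of *Gip*-positive members are printed above; the medians of HFD VSG crypts and villi are 12.9% and 11.7%.

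*Nts*, the gene of neurotensin, reached 5 UMIs in 16 of 37, 4 of 44, 3 of 24, 5 of 48, 6 of 40 and 0 of 31 members. Outside the chromogranin rule, 14 passing cells held at least 5 *Nts* UMIs making up at least 0.2% of their UMIs. Of these, 11 were in LFD sham crypts, so the shares of members are not counts of all *Nts* cells. The *Nts* share of members was highest in LFD sham crypts. HFD sham crypts lay 30.7 points lower (interval -48.6 to -7.19), while the villus-labelled difference was 1.33 points (-12.1 to 14.3). With both fractions summed it was -13.6 points (-25.3 to -1.24). In HFD VSG villi 0 of 31 cells reached 5 UMIs of *Nts*, and 3 cells would be 9.68% (exact upper limit 11.2%).

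*Tac1* and *Tph1* were most frequent in HFD sham crypts, at 10 and 14 of 24 members. In the 5 other libraries *Tac1* reached 5 UMIs in 12.5 to 29.5% of members and *Tph1* in 14.6 to 29.5%. HFD VSG lay 29.2 (-49.9 to -7.23) and 33.3 (-53.6 to -8.61) points below HFD sham in crypt-labelled libraries and 0.60 and 1.55 points above it in villus-labelled ones. With both fractions summed the differences were -10.9 (-23.9 to 2.54) and -8.04 (-21.9 to 6.203) points, and both intervals included 0. *Sct* was higher in HFD VSG than in HFD sham by 15.04 points (0.91 to 28.4) with both fractions summed, at 59 of 71 and 49 of 72 cells, and by 3.33 points (-15.2 to 24.8) in crypt-labelled and 21.4 points (0.80 to 38.1) in villus-labelled libraries. With cells thinned to 2000 UMIs, *Sct* reached 5 UMIs in 29 of 40 crypt-labelled and 14 of 31 villus-labelled HFD VSG cells, and in 16 of 23 and 19 of 43 HFD sham cells. The summed difference was then 7.53 points (-8.85 to 23.4), and its interval included 0.

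Between LFD sham and HFD sham crypts, 663 genes that averaged 50 UMIs or more over both libraries were compared, of which 23 (3.47%) were higher in HFD sham by more than 1 on the log2 scale and 23 (3.47%) were lower. With free RNA subtracted at the fraction that the methods give for each library, 86 genes passed in place of 46. Those fractions were several-fold higher in both HFD sham libraries than in any LFD sham or HFD VSG library, and HFD sham is part of every group comparison of genes. A gene low in 1 library passed the minimum only if it was high in the other, so counts over listed genes are descriptions. Of 29 hormone genes listed, 13 had enough UMIs, of which 7 were lower and 1 higher, with a median of -1.88. *Sst* was at 1 UMI in HFD sham and 6062 in LFD sham, a log2 ratio of -11.56 (-16.9 to -9.08), from 7 LFD sham cells of which 1 held 51.8% of the UMIs. Members held 97.4% of the *Sst* UMIs of all passing LFD sham crypt-labelled cells but 0.285% of those of HFD sham, where 1 cell with at least 5 *Sst* UMIs making up 0.2% of its UMIs lay outside the chromogranin rule, and the ratio in the other cells was 1.65. *Ghrl* (-5.56) and *Cck* (-3.54) were also lower, and *Iapp*, the gene of amylin, was at 0 and 147 UMIs. *Guca2a* (3.21), the gene of guanylin, *Ccnd2* (1.83), *Krt19* (1.53) and *Lypd8* (1.49) were higher. With both fractions summed, *Ghrl* was at 0.13, *Cck* at 0.053 and *Ccnd2* at -0.10. Of 6 goblet cell markers 5 were higher and 1 lower, and 1 cell held 85.8% of the goblet marker UMIs of the HFD sham members. With doublets removed, *Guca2a* was at 0.54 and *Lypd8* at -0.25.

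In villus-labelled libraries 1353 genes were compared between HFD sham and LFD sham, of which 15 (1.11%) were higher and 13 (0.961%) lower, and with free RNA subtracted 56 passed in place of 28. Of 12 hormone genes 4 were higher and 1 lower. *Sst* was at 244 UMIs in HFD sham and 1 in LFD sham (log2 ratio 8.35, 5.86 to 13.7), opposite to the crypt-labelled libraries, and with fractions summed it was -3.99. Members held 10.3% of all *Sst* UMIs of HFD sham villi and 2.00% of those of LFD sham villi, with 2 such *Sst* cells and 1 outside the rule, and the other cells stood at 5.57. *Ghrl* (3.96) was higher in members and lower in the other cells (-2.56), and members held 65.02% of its UMIs in HFD sham and 2.40% in LFD sham. *Mme* (2.90), the gene of the peptidase neprilysin, and *Fabp2* (1.71), the intestinal fatty acid-binding protein, were higher in members and also in the other cells (1.26 and 1.10). A single HFD sham cell held 58.2% of the *Fabp2* UMIs, and without the top cell the ratio was 1.08. *Dmbt1* (-3.89), *Reg3g* (-3.56), *Reg3b* (-2.45) and *Ccnd2* (-2.04) were lower, and the lectins *Reg3b* and *Reg3g* are known as antimicrobial products of enterocytes and Paneth cells. A single LFD sham cell held 82.0% of that library's *Dmbt1* UMIs and a single one 67.5% of its *Reg3b* UMIs, and without the top cell the ratios were -1.77 and -1.19. Of 5 host defence lectins 3 were lower, and the median in the other cells was -0.79.

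Between HFD VSG and HFD sham crypts 759 genes were compared, of which 41 (5.40%) were higher and 33 (4.35%) lower, and with free RNA subtracted 162 passed in place of 74. Of 12 hormone genes 7 were higher and 3 lower, with a median of 2.59. *Cck* was at 3220 and 59 UMIs (log2 ratio 4.58, 4.21 to 4.98), and 1 HFD VSG cell held 43.1% of these. *Gcg* was at 1550 and 54 UMIs (3.66), from 4 and 2 cells. *Fabp5*, a fatty acid-binding protein, was at 1015 and 32 UMIs (3.80), from 25 and 6 cells, and *Rbp4*, the plasma retinol-binding protein, at 228 and 9 UMIs (3.48), from 24 and 6 cells. With fractions summed, *Cck* was at -0.02 and *Gcg* at -0.78.

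*Fabp5* and *Rbp4* were higher in HFD VSG than in HFD sham in the villus-labelled libraries too, at log2 ratios of 1.44 (1.33 to 1.55) and 0.51 (0.27 to 0.74), and their ratios in the other cells were 0.52 and -1.66. Summed over both fractions they were at 1.57 and 0.81. Lower in HFD VSG crypts were *Muc2* (-3.69) and *Agr2* (-3.10), both goblet cell genes, *Tac1* (-2.31) and *Ccnd2* (-2.26). Of 6 goblet markers 5 were lower, and the same HFD sham cell held most of their UMIs. Without members holding over 2% enterocyte or goblet marker UMIs, *Muc2* was at -0.16. 

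Only 7 of 34 listed transcription factors and 9 of 24 granule genes had enough UMIs to be compared between HFD VSG and HFD sham crypts. A gene with few UMIs in HFD sham passed the minimum only where it was high in HFD VSG, whose members held more UMIs in all, so the passing genes are described without a count of those higher. *Isl1* was at 223 and 14 UMIs (log2 ratio 2.81), *Pax6* at 140 and 20 UMIs (1.62) and *Etv1* at 92 and 16 UMIs (1.34), and *Rfx6* stood at 283 and 75.0 CPM (1.91). *Scg2* was at 420 and 28 UMIs (2.72), *Scgn* at 171 and 16 (2.23), *Cpe* at 685 and 73 (2.04) and *Pam*, the gene of the amidating enzyme of peptide hormones, at 224 and 48 (1.04). In villus-labelled libraries the ratios were 0.25 for *Isl1*, 0.047 for *Pax6*, -0.77 for *Rfx6*, -1.66 for *Etv1*, -2.11 for *Scg2*, 0.23 for *Scgn*, -0.12 for *Cpe* and 0.074 for *Pam*. Summed over both fractions, *Isl1* was at 0.56, *Pax6* at 0.34, *Scgn* at 0.50, *Cpe* at 0.40 and *Pam* at 0.36, while *Rfx6* (-0.12), *Etv1* (-0.73) and *Scg2* (-0.38) turned to the other direction. In HFD sham against LFD sham crypts, *Isl1* was at -1.79, *Pax6* at -1.32, *Scg2* at -2.15, *Scgn* at -1.71 and *Cpe* at -1.07, against 0.12, -0.044, 0.26, -0.18 and 0.22 with both fractions summed. Both comparisons share the HFD sham crypt-labelled library, in which 14 of 24 members were *Tac1* and *Tph1* cells.

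Within *Gip* cells *Isl1* stood at 1253, 904, 814, 820, 797 and 863 CPM in the 6 libraries, and *Cpe* at 1551, 2388, 1627, 2203, 2454 and 1939 CPM. *Scg2* ranged from 416 to 1461 CPM and *Scgn* from 271 to 989 CPM. *Rfx6* stood at 656, 523, 814, 589, 381 and 251 CPM, lower in HFD VSG than in HFD sham in both fractions. *Fabp5* and *Rbp4* were genes of the *Gip* class as well. *Fabp5* stood at 2267, 7659, 2712, 7020, 5185 and 10651 CPM in *Gip* cells and at 0 to 62.2 CPM in *Tac1* and *Tph1* cells, and it was higher in the villus-labelled library of each group. *Rbp4* stood at 119, 650, 542, 1050, 1005 and 1389 CPM in *Gip* cells, and 1 UMI of it was found in all 64 *Tac1* and *Tph1* cells together.

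Between HFD VSG and HFD sham villi 1483 genes were compared, of which 100 (6.74%) were higher and 74 (4.99%) lower. With doublets removed 110 passed in place of 174, and with fractions summed 89. Of 11 hormone genes 2 were higher and 5 lower, with a median of -0.78. *Sst* was at 4268 and 244 UMIs (3.48), from 4 cells in each library. Members held 98.2% of all *Sst* UMIs of HFD VSG villi but 10.3% of those of HFD sham villi, where 2 cells high in *Sst* lay outside the chromogranin rule, and the ratio in the other cells was -6.06. *Dmbt1* (2.79), *Pycard* (2.35), an inflammasome adaptor, and *Mrpl52* (2.11), a mitochondrial ribosomal protein, were higher, and stood at 0.95, 1.31 and 1.36 in the other cells. A single HFD VSG cell held 51.8% of the *Pycard* UMIs, and without the top cell the ratio was 1.64. *Nts* was at 0 and 1470 UMIs. *Apoa4* (-3.80), an apolipoprotein of enterocytes, and *Reg4* (-3.45) were lower, and stood at -1.50 and -1.23 in the other cells. *Reg4* came from 2 HFD VSG cells and 7 HFD sham cells. A single cell held 99% of its UMIs in HFD VSG and 64.2% in HFD sham, and without the top cell the ratio was -8.61. *Afp* was at 2 and 400 UMIs (-8.30, -11.3 to -6.43), and 1 HFD sham cell held 98.8% of these.

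Of 56 nuclear genes of oxidative phosphorylation 10 (17.9%) were higher in HFD VSG villi and none lower, with a median of 0.73 against 0.07 over all genes compared. The same genes had a median of 0.52 in the other cells, and in crypt-labelled libraries the median in members was -0.02 with 0 of 34 past the fold. Of 12 mitochondrially encoded genes, none was higher in HFD VSG villi and 5 were lower, with a median of -0.79 in members and -0.46 in the other cells. The 10 nuclear genes were *Cox6c* (1.32), *Uqcr11* (1.24), *Atp5g2* (1.22), *Cox7a2* (1.21), *Cox8a* (1.20), *Ndufb11* (1.15), *Cox5a* (1.14), *Uqcrh* (1.13), *Ndufa7* (1.09) and *Ndufc2* (1.06), subunits of respiratory complexes and of ATP synthase. Summed over the list, *Gip* cells stood at 7220, 12477, 9402, 11670, 14557 and 25378 CPM, and *Tac1* and *Tph1* cells at 12155, 17616, 13947, 14241, 17642 and 18874 CPM. The HFD VSG villus-labelled library was the highest in both classes. Of 6 genes of fat absorption 5 were lower (median -2.40), namely *Apoa4*, *Apoa1* (-3.43), *Mttp* (-2.51), *Apob* (-2.29) and *Fabp2* (-2.24), with -1.31 in the other cells. Without the HFD sham cell that held most enterocyte marker UMIs, and 58.2% of the *Fabp2* UMIs, *Fabp2* was at -1.07, *Apoa4* at -3.19, *Apoa1* at -2.73, *Mttp* at -2.25 and *Apob* at -2.01. In crypt-labelled members 2 of 9 such genes were higher in HFD VSG and none lower (median 0.88), and with fractions summed *Apoa4* was at 0.53. Enterocyte markers took 0.508% of the summed UMIs of HFD VSG villus-labelled members and 1.49% of those of HFD sham, or 0.925% without the 1 HFD sham cell that held 41.7% of these marker UMIs. Another list held 4 genes taken to mark damaged droplets (*Gm42418*, *Gm26917*, *Lars2* and *AY036118*), and whether they mark damage was not tested here. They were lower in HFD VSG in both fractions, with a median of -2.01 in crypt-labelled members and -1.89 in the other cells there. The part of these differences in the counts above was not tested.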

How the data were processed

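UMI counts (whole numbers, not normalized) were deposited for each of the 6 libraries, once for all barcodes and once for those called as cells. Per the labels they were made with Cell Ranger 6.0.0 on mm10. Members, gene lists and tests were chosen with earlier results of these data known. CPM were UMIs summed over the members of a library, per 1000000, and 3′ UMIs are not scaled by length. Group ratios were counted as past the fold beyond 1 (log2), if a gene averaged 50 UMIs. Intervals (95%) were exact Clopper-Pearson for shares, exact binomial-based for ratios and Newcombe's for differences of shares. A count of 0 was set to a floor of 3. Cells with T cell genes held at least 3 UMIs summed over *Ptprc*, *Cd3g*, *Cd3e* and *Trbc2*, and no chromogranin UMI. Doublets were scored against simulated pairs and the highest 0.8% per 1000 called barcodes marked. This marked 15 of 224 members, which were kept. Named genes were the 6 genes and chromogranins, list members with at least 30 UMIs, the 10 highest genes outside the lists, and the 4 highest and 4 lowest per comparison whose direction remained without the top cell. Values within hormone classes, the summed share and summed ratios of *Gip* class genes, thinned *Gip* and *Sct* shares, and values without 1 enterocyte-marked cell were added after seeing the data. Library totals ran from 60522766 to 155522445 UMIs over called cells. With 1 library per group, no test between groups was made. The computation of the ratios was checked on simulated data. The software was matplotlib 3.10.9, statsmodels 0.14.6, pandas 2.3.3, scipy 1.17.1, scikit-learn 1.9.0, numpy 2.4.6 and Python 3.11.15. Promoter windows came from RefSeq. The result of 1 listed gene is not reported here.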

Additional observations from a re-analysis of the deposited data

Results flagged for a closer look

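Several values went opposite ways in the crypt-labelled and the villus-labelled libraries under the same contrast. Each fraction had 1 library per group, so the difference between fractions was not tested. For HFD sham against LFD sham, the log2 ratio of the share of members was -0.14 in crypt-labelled and 0.20 in villus-labelled libraries. The difference in members with at least 5 UMIs, in percentage points and with the crypt-labelled value first, was -1.24 and 0.19 for *Gcg*, -17.5 and 3.79 for *Ghrl*, -30.7 and 1.33 for *Nts*, and -16.0 and 1.33 for *Pyy*. It was -10.8 and 4.17 for *Sst*, 28.2 and -10.8 for *Tac1*, and 36.7 and -15.0 for *Tph1*. For HFD VSG against HFD sham, the log2 ratio of the share was 0.066 and -0.75. The difference was 5.83 and -16.5 points for *Gcg*, 2.50 and -10.4 for *Nts*, 14.2 and -0.74 for *Pyy*, -29.2 and 0.60 for *Tac1*, and -33.3 and 1.55 for *Tph1*.

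Barcodes outside the comparisons also met the chromogranin rule. Called barcodes that met it and failed the filters on genes or mitochondrial UMIs numbered 81, of which 16 and 8 were in the LFD sham, 8 and 43 in the HFD sham and 4 and 2 in the HFD VSG libraries (crypt-labelled first). In HFD sham villi 40 of the 43 failed the gene minimum. A further 19 droplets that were not called as cells met it.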

How the results depend on the processing

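No paired analysis was possible because the groups compared were different mice with 1 pooled library each per fraction and the labels carry no replicate numbers, and for the same reason no replicate could be left out. With 24 to 48 members per library, a difference of fewer than about 20 percentage points in a hormone share lay within counting error in most comparisons. The cause of the changes below was not tested.

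With *Chga* alone as the rule, members numbered 93, the share of members with any of the 6 genes was 100%, the log2 share ratio of HFD sham to LFD sham villi was -0.47, and the *Gip* difference between HFD VSG and HFD sham was 0 points in both fractions, since no member then held 5 *Gip* UMIs. The 6-gene share was 100% also with at least 1500 genes and with at least 10 chromogranin UMIs making up 0.5%. At most 10% mitochondrial UMIs, a limit that also removed barcodes from the denominators, gave a share ratio of -1.50 for HFD VSG to HFD sham villi. Without members over 2% enterocyte or goblet marker UMIs, the *Gip* difference in crypts was 46.2 points, from the fewer cells that remained.

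Genes past the fold numbered 46 (HFD sham to LFD sham, crypts), 28 (villi), 74 (HFD VSG to HFD sham, crypts) and 174 (villi). With a minimum mean of 20 UMIs they numbered 187, 147, 257 and 466, and with 3 UMIs 2214, 1671, 2213 and 2324. With free RNA subtracted, at the fraction that the methods give for each library, they numbered 86, 56 and 162 in the first 3 comparisons, and at a fraction of 0.1 in every library they numbered 48 in HFD sham to LFD sham villi. With fractions summed the villus-labelled values became 48 and 89, and with doublets removed 18 and 110.

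With fractions summed, HFD sham to LFD sham turned from the crypt-labelled direction to 0.053 for *Cck*, -0.10 for *Ccnd2*, 0.13 for *Ghrl* and 0.12 for *Pyy*, and from the villus-labelled direction to -1.28 for *Nts* and -3.99 for *Sst*. HFD VSG to HFD sham turned to -0.017 for *Cck*, -0.78 for *Gcg* and -0.058 for *Pyy* (crypts) and to 0.53 for *Apoa4* (villi). *Lypd8* turned to -0.25 without doublets (HFD sham to LFD sham, crypts). In HFD VSG to HFD sham crypts, *Guca2a* turned to 0.45 without its top cell, 0.56 without doublets and 0.11 without marker-holding members, and *Sst* to -2.77 without its top cell.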
